A study of Homo sapiens with 6 samples.

Results

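The p200 interferon-inducible family, also called the PYHIN or HIN-200 family, was examined in RNA-seq counts of cells with and without LINC00115 knockdown (KD). The genes listed as members were Ifi202b, Ifi203, Ifi204, Ifi205, Ifi206, Mnda and Aim2, and each was taken by its symbol from a table of 22989 genes. Rows were found for 6 of these 7 members, and no row was named Mnda. The members were chosen by their family name with their KD and control counts in this table known, so those counts are a description of the list. No p-value is given for a single member, and numbers of members called are description only. Another 7 genes of the family had rows (Ifi207, Ifi208, Ifi209, Ifi211, Ifi213, Ifi214 and Mndal), which the member list did not use, and these were tested. Their list was also drawn up with earlier results of these data known, so their tests are no independent support for the members.

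The series compared 3 libraries labelled LINC00115 KD with 3 labelled WT, called control here. All 6 are described as paclitaxel-resistant MDA-MB-231 breast cancer stem-like cells (BCSC). This established line comes from a human breast cancer that lacks hormone receptors and HER2, and the BCSC were sorted from it by their aldehyde dehydrogenase activity. A hairpin RNA against the long non-coding RNA LINC00115 was put into the KD cells by a virus with puromycin selection, and the labels name no vector for the control. The study used a pair of hairpins, sh115-1 and sh115-2, while the KD columns are numbered sh115-1 to sh115-3 and their titles call them replicates. The paper's legend for this comparison names the hairpin sh115-2, while the labels name none for a single library. Nothing states that the replicates were separate cultures, so p-values measure the spread between these libraries, which may be technical.

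p200 proteins carry a C-terminal HIN domain that binds DNA, and most of them also carry an N-terminal pyrin domain that binds the pyrin domains of other proteins. Their genes lie in one cluster, are induced by interferons and differ in number between mammals, with a larger set in the mouse than in humans. AIM2 senses double-stranded DNA in the cytosol and starts inflammasome assembly. Human IFI16 and mouse Ifi204 have been linked to DNA sensing through STING, and several members also act in the nucleus on transcription and cell growth.

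The family's symbols bear on what was counted. The human family consists of MNDA, PYHIN1, IFI16 and AIM2, and of these 4 symbols only AIM2 was matched in the table, apart from case. The other 12 of the 13 p200 genes found carry mouse symbols that match no human symbol. The table as a whole is written in mouse style: 4648 genes have Gm names, and 111 of them had at least 100 counts in every library, and 14422 of 22989 symbols equal a human symbol apart from case. The labels give the organism as human and the paper names hg19, so symbols and labels go against each other. Ifi202b and Ifi203, whose symbols match no human symbol, had 10813 and 13471 counts in control replicate 1. The species that the reads came from was not tested. In GENCODE release 44 lifted to GRCh37 (hg19), the human cluster lies on chromosome 1, with MNDA at chr1:158801141-158819296, PYHIN1 at chr1:158900586-158946849 and IFI16 at chr1:158969758-159024945, all on the plus strand, and AIM2 at chr1:159031389-159157633 on the minus strand. No position is given for the mouse-named genes, because no mouse genome was used. LINC00115 had 0 rows, so the knockdown itself could not be checked and the direction of each change rests on the labels.

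Library totals ranged from 36979221 to 38799331 counts. Pairs of libraries within a group differed by 3.94 to 7.96 times the counting noise (chi-square per degree of freedom), and pairs across the groups by 224 to 246 times. Of 13497 genes tested with edgeR's quasi-likelihood test, 10.2% were called higher in KD and 9.98% lower, at an adjusted p under 0.05 and a fold change over 2. Against this background, 3 of the 6 members found were called higher and 0 lower. Among those 3, Ifi206 passed the filter on low counts through the KD libraries alone. Without the fold threshold, an adjusted p under 0.05 was reached by 36.7% of the genes tested in the higher direction and 36.7% in the lower, and by 4 and 1 of the members, as also at an unadjusted p under 0.05. DESeq2 called 3 members higher and 0 lower. Every KD library lay above every control library for 4 members and below for 1, beside 37.8% of all genes tested in each direction. Since the list was chosen with this contrast known, nothing is read from these numbers.

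**Figure D1:**
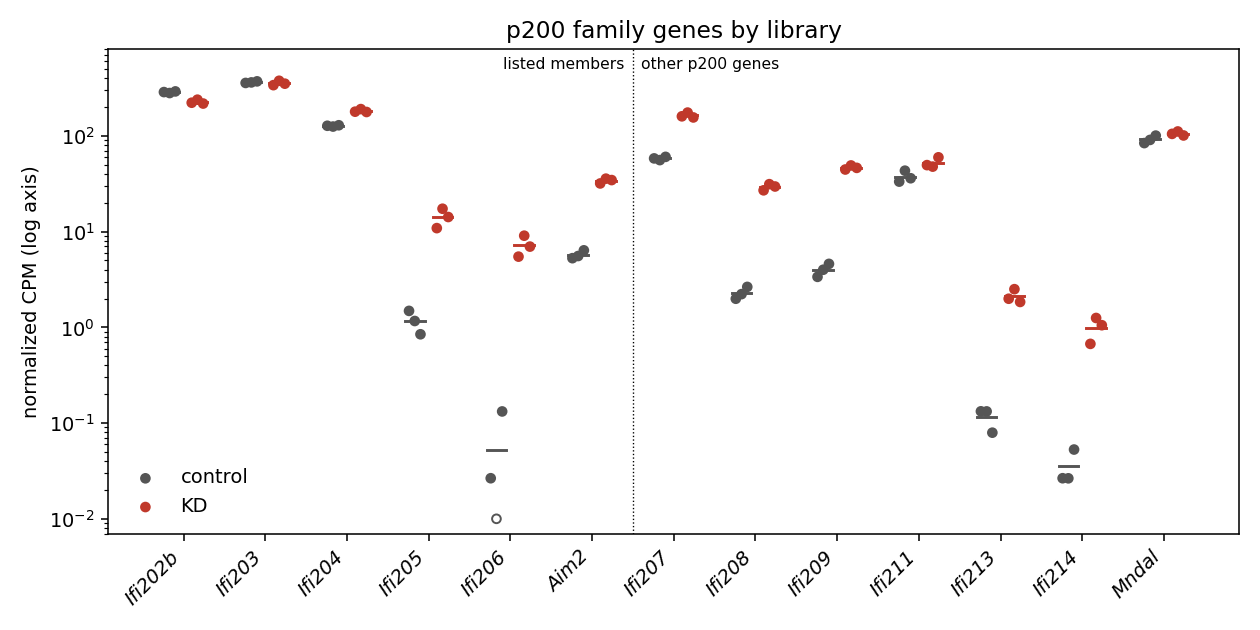
Normalized CPM (counts scaled to the TMM-adjusted library total, log axis) of the 13 p200 genes found, with 1 point per library, a line at the mean of 3 libraries, control in grey and KD in red. The open point marks the control library with 0 counts of Ifi206, drawn at the foot of the axis. Ifi202b is lower in KD, the Ifi203 libraries overlap, and the other 11 genes have every KD library above every control library. Of all genes tested, 37.8% have every KD library above every control library and 37.8% have every one below.

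Aim2 was among the members with separated groups. It had 199, 210 and 241 counts in the control libraries and 1233, 1313 and 1313 in the KD libraries. No KD library came near the control range. Its level was 5.74 ± 0.569 normalized CPM in control and 34.1 ± 1.99 in KD (SD over n = 3 libraries). The log2 fold change was 2.57 with a standard error of 0.09.

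In the AIM2 inflammasome, the pyrin domain of AIM2 recruits the adaptor ASC, encoded by Pycard, which activates caspase-1. Caspase-1 matures IL-1β and IL-18 and cleaves gasdermin D, which opens pores in the membrane. Pycard had 1, 1 and 0 counts in control and 1, 0 and 1 in KD. Both groups were thus at or under the limit of 3 counts per library, and no fold is given. Of the 12 listed inflammasome genes, 11 had rows and 8 were tested. At an unadjusted p under 0.05 there were 5 higher and 0 lower. These counts were the same at an adjusted p under 0.05, which 36.7% of all genes tested reached in each direction. In edgeR's quasi-likelihood test 1 was called higher and 0 lower, and DESeq2 called 1 and 0. The 1 call is near the background, as 10.2% of all genes tested were called higher. The median log2 fold change was 0.44, against -0.01 over all genes tested.

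The called gene was Il18, which went from 3.86 ± 0.722 to 8.47 ± 0.893 normalized CPM (SD, n = 3), a log2 fold change of 1.13 (standard error 0.16, edgeR adjusted p = 1.12e-07). The following genes of this list were chosen after their values were seen. Casp1, with a log2 fold change of 0.64, Casp4, a sensor of cytosolic lipopolysaccharide, with 0.68, and Gsdmd, with 0.24, were higher in KD at an adjusted p under 0.05 but under a fold change of 2. Il1b had 16, 19 and 7 counts in control and 36, 22 and 24 in KD, with an edgeR adjusted p of 0.0911. It passed the filter only through the KD libraries, so a difference was built into its selection.

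Ifi204 encodes the p204 protein, which has been linked to DNA sensing and to the differentiation of muscle and bone cells. It had 4809, 4728 and 4883 counts in control and 6928, 6997 and 6753 in KD. The groups did not overlap, and each group was tight, with a coefficient of variation of 1.58% in control and 3.86% in KD. The level was 127 ± 2.01 normalized CPM in control and 183 ± 7.04 in KD (SD, n = 3), a log2 fold change of 0.52 with a standard error of 0.04, which is under the fold threshold.

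Around it, 12 of 16 listed genes of DNA sensing through STING were tested, where some listed names are older and newer symbols of the same gene. In edgeR's test 3 were called higher and 1 lower, beside 10.2% and 9.98% of all genes tested, and the list's median log2 fold change was 0.03. Zbp1, a sensor of Z-form nucleic acids, rose from 27.4 ± 3.42 to 324 ± 10.5 normalized CPM (SD, n = 3), a log2 fold change of 3.56 (standard error 0.05, edgeR adjusted p = 5.47e-34). Irf7, a transcription factor of interferon genes, rose with a log2 fold change of 2.67, and Cgas, the enzyme that makes the second messenger for STING, with 1.45. The kinase gene Ikbke fell, with a log2 fold change of -1.11. Sting1 itself, chosen after its values were seen, had 1476, 1443 and 1458 counts in control and 934, 1030 and 995 in KD. Every KD library was below every control library, with a log2 fold change of -0.57 (edgeR adjusted p = 4.38e-09) that is under the fold threshold.

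Ifi202b encodes p202, which has HIN domains but no pyrin domain and has been described as an inhibitor of AIM2. It was the member with lower values in KD. Counts were 10813, 10588 and 11021 in control and 8594, 8776 and 8273 in KD. The level was 286 ± 5.63 normalized CPM in control and 226 ± 11.2 in KD (SD, n = 3), a log2 fold change of -0.34 with a standard error of 0.04. The KD libraries all lay below the control libraries, at 0.790 times the control mean, and the change was under the fold threshold.

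Ifi203 encodes p203, which has both a pyrin and a HIN domain. It had 13471, 13674 and 14036 counts in control and 13115, 13829 and 13344 in KD. The groups overlapped. The level was 364 ± 7.08 normalized CPM in control and 356 ± 19.2 in KD (SD, n = 3), and the log2 fold change of -0.03 was smaller than its standard error of 0.04. Its sign turned without KD replicate 1, to 0.0078.

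Ifi205 encodes p205, which has been reported to control the expression of the adaptor ASC. It had 56, 44 and 32 counts in control and 421, 637 and 540 in KD. All KD libraries were above all control libraries, while the KD libraries differed among themselves with a coefficient of variation of 22.9%, where counting alone would give 4.33%. The level was 1.17 ± 0.320 normalized CPM in control and 14.2 ± 3.23 in KD (SD, n = 3), a log2 fold change of 3.60 with a standard error of 0.19.

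Ifi206 is a less studied member. It had 1, 0 and 5 counts in control and 212, 333 and 265 in KD. Its reads were thus almost all in the KD libraries, and it passed the filter on low counts through the KD group alone, so that a difference was built into its selection. The pooled ratio was 135, with an exact binomial interval (95%) of 61.7 to 368 that covers counting error only. The fitted log2 fold change of 6.99 became 8.76 without control replicate 3, which held 5 of the 6 control counts, so its size is poorly fixed. In KD, Ifi206 and Ifi205 had the same order of libraries, lowest in replicate 1 and highest in replicate 2. In normalized CPM, Aim2, Ifi203, Ifi208, Ifi209 and Ifi214 also had this order, so it is not particular to the pair.

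**Figure D2:**
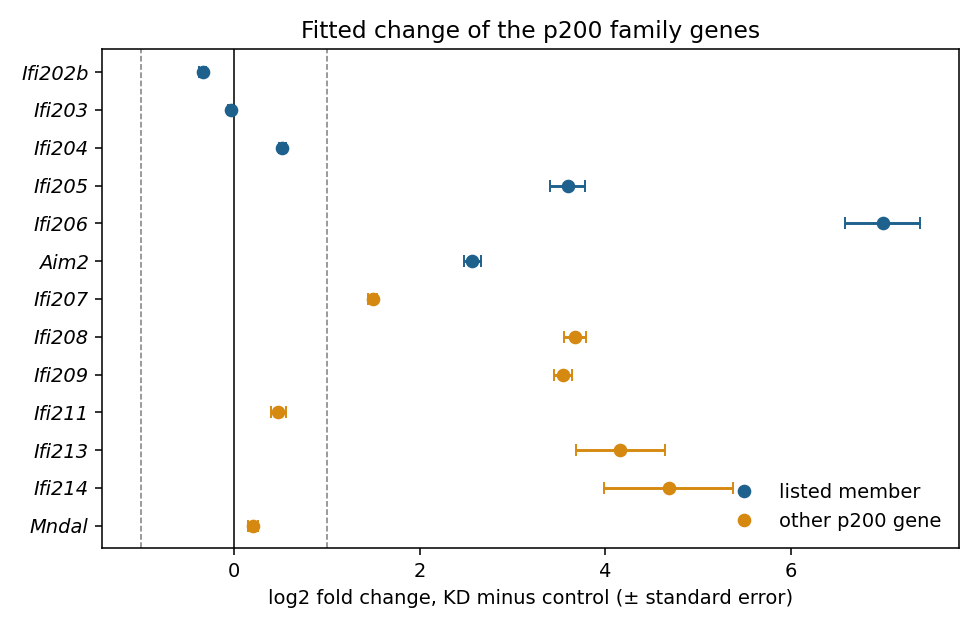
Log2 fold change of KD minus control with its standard error for the 13 p200 genes, listed members in blue and the other p200 genes in orange, with dashed lines at a fold change of 2. The values run from -0.34 for Ifi202b to 6.99 for Ifi206, and 8 genes lie beyond the upper dashed line and none beyond the lower.

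The 7 p200 genes outside the member list were all higher in KD. Of these, 5 were called higher and 0 lower in edgeR's test, beside 10.2% higher and 9.98% lower of all genes tested, and DESeq2 called 5 and 0. At an unadjusted p under 0.05 there were 7 higher and 0 lower. These counts were the same at an adjusted p under 0.05, which 36.7% of all genes tested reached in each direction. In all 7 every KD library lay above every control library, which holds for 37.8% of all genes tested. Of the 5 called, Ifi213 and Ifi214 passed the filter through the KD libraries alone, so a difference was built into their selection and their calls add nothing to the count. These genes are close relatives of the members, and how the counting treated reads that match several of them is not stated, so neither the members nor these genes are fully independent of each other. As their list was drawn up with earlier results known, the counts of genes called are a description.

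Ifi207, reported to stabilise STING, had 2194, 2110 and 2283 counts in control and 6197, 6435 and 5922 in KD. Its level rose from 58.2 ± 2.26 to 164 ± 10.2 normalized CPM (SD, n = 3), a log2 fold change of 1.49 (standard error 0.05, edgeR adjusted p = 1.21e-24). This gap was many times the spread within either group.

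Ifi208 had 75, 84 and 100 counts in control and 1045, 1150 and 1125 in KD, a log2 fold change of 3.68 (standard error 0.12, edgeR adjusted p = 1.13e-24). Ifi209 had 127, 151 and 174 counts in control and 1724, 1804 and 1761 in KD, a log2 fold change of 3.55 (standard error 0.09, edgeR adjusted p = 7.08e-27). Both genes rose by a similar fold, 12.8 for Ifi208 and 11.7 for Ifi209 from the fit, and their difference was not tested.

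Ifi213 had 5, 5 and 3 counts in control and 77, 92 and 70 in KD. The pooled ratio was 18.4, with an exact binomial interval from 10.5 to 35.0. Ifi214 had 1, 1 and 2 counts in control and 26, 46 and 40 in KD, a pooled ratio of 28.0 with an interval from 10.6 to 104. These intervals cover counting error only, and both genes rested on a handful of control reads. No p-value is given for them, since the filter kept them only because of their KD counts.

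Ifi211 and Mndal, a relative of Mnda, moved little. Ifi211 had 1255, 1636 and 1365 counts in control and 1916, 1754 and 2270 in KD, with a log2 fold change of 0.48 (standard error 0.08, edgeR adjusted p = 1.25e-06). Mndal had 3170, 3429 and 3807 counts in control and 4062, 4085 and 3839 in KD, with a log2 fold change of 0.20 (standard error 0.05, edgeR adjusted p = 0.000718). The highest control library of Mndal was close to the lowest KD library, at 101 normalized CPM in both. Neither gene reached the fold threshold.

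Summed over the 6 members, the level was 784 ± 13.4 normalized CPM in control and 820 ± 42.7 in KD (SD, n = 3), and the libraries of the groups overlapped, from 775 to 800 in control and from 789 to 869 in KD. Summed over all 13 genes, it was 979 ± 23.0 in control and 1221 ± 58.1 in KD, with no overlap. The division of the counts among the genes also shifted. A share can fall without a fall of the gene's own level: that of Ifi203 went from 37.2% to 29.1%, while its levels overlapped between the groups. These are shares of counts, not of transcripts, since they were not divided by transcript length. Ifi202b and Ifi203, paired after their values were seen, took 66.4% ± 0.597 of the p200 counts in control and 47.7% ± 0.173 in KD (SD, n = 3). Ifi207 went from 5.95% ± 0.166 to 13.4% ± 0.347, Aim2 from 0.586% ± 0.0440 to 2.79% ± 0.0895, and Ifi209 from 0.407% ± 0.0539 to 3.82% ± 0.0424. The share of Ifi204 changed less, from 13.0% ± 0.238 to 15.0% ± 0.224, and that of Mndal was 9.38% ± 0.635 in control and 8.67% ± 0.242 in KD.

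**Figure D3:**
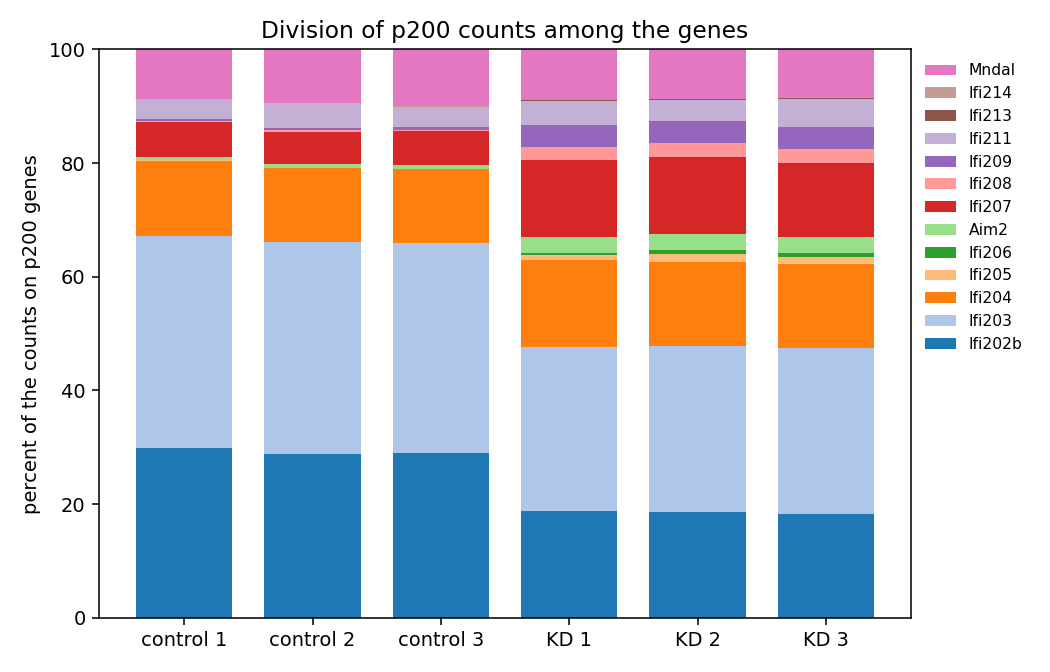
Percent of the counts on the 13 p200 genes that fell on each gene, 1 bar per library. Ifi202b and Ifi203, at the foot of each bar, take 66.4% on average in control and 47.7% in KD, and the 3 bars of each group are alike.

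p200 genes are targets of interferon signalling, in which kinases bound to the receptor, among them TYK2, activate transcription factors that switch on interferon-stimulated genes. Of 19 listed interferon ligands, 10 had rows and 1 was tested. This was Ifnb1, encoding interferon beta, with 1, 5 and 1 counts in control and 40, 66 and 87 in KD. The counts are few in both groups, and it passed the filter through the KD libraries alone, so its test is not reported.

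Of the receptor pathway list, 15 of 16 genes were tested, and the median log2 fold change was -0.12. In this list 4 were called higher and 2 lower, beside 10.2% and 9.98% of all genes tested. Stat2, a transcription factor of the pathway, rose from 52.5 ± 4.35 to 226 ± 5.05 normalized CPM (SD, n = 3), a log2 fold change of 2.11 (standard error 0.05, edgeR adjusted p = 3.59e-29). Irf5, an interferon regulatory factor, rose with a log2 fold change of 1.77, whereas Tyk2 fell with -1.30. At an adjusted p under 0.05 alone, 7 genes of this list were higher and 7 lower, beside 36.7% of all genes tested in each direction. Without KD replicate 2 the genes called lower in this list numbered 1.

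Among 10 negative regulators of the pathway, 3 were called higher and 1 lower, beside 10.2% and 9.98% of all genes tested, with a median of -0.12. Usp18, which displaces JAK1 from the receptor, rose with a log2 fold change of 2.32, Trim21, a ubiquitin ligase, with 1.16 and Socs1, an inhibitor of JAK kinases, with 1.15. Ptpn6, a tyrosine phosphatase, fell with -2.51.

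Of 27 classical interferon-stimulated genes tested, 26 were called higher and 0 lower by both edgeR and DESeq2. Over all genes tested edgeR called 10.2% higher and 9.98% lower. At an unadjusted p under 0.05 the list had 27 higher and 0 lower. These counts were the same at an adjusted p under 0.05, which 36.7% of all genes tested reached in each direction. The list's median log2 fold change was 2.43. Ifi44l rose most of those named by the rule, with a log2 fold change of 6.96, followed by Rsad2, an antiviral radical enzyme, with 5.25, Cmpk2, a nucleotide kinase, with 5.24, and Ifit3, an RNA-binding effector, with 4.83. Ifi44l passed the filter only through the KD libraries, so a difference was built into its selection. Ifi205, Ifi206, Aim2, Ifi208, Ifi209, Ifi213 and Ifi214 had log2 fold changes above this median, and the other 6 p200 genes lay below it.

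**Figure D4:**
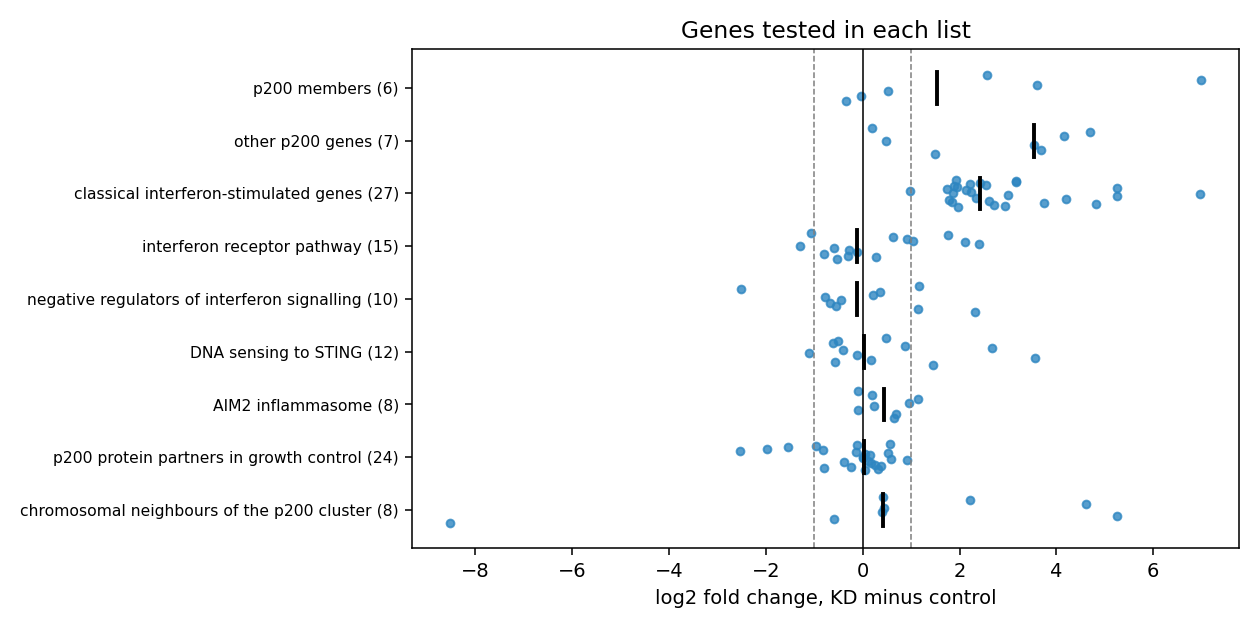
Log2 fold change of KD minus control for each gene tested in 9 lists, 1 point per gene, with the number tested beside each list name, a black bar at the median and dashed lines at a fold change of 2. The p200 members and the other p200 genes spread widely, from -0.34 to 6.99, while the interferon-stimulated genes all lie above 0. The point far to the left is Fcer1a, which had 0 counts in every KD library, so its fitted value has no fixed size.

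p200 proteins have been described to bind regulators of growth such as pRb, E2F factors, p53 and the Id proteins. All 24 listed partners were tested. In edgeR's test 0 were called higher and 3 lower, DESeq2 called 0 and 3, and the list's median log2 fold change was 0.02. At an unadjusted p under 0.05 there were 10 higher and 9 lower. These counts were the same at an adjusted p under 0.05, which 36.7% of all genes tested reached in each direction. Of all genes tested 9.98% were called lower, so the list's share called is near the background. Those called were Id2, an inhibitor of basic helix-loop-helix factors, with a log2 fold change of -2.53, Cdkn1a, encoding the CDK inhibitor p21, with -1.97, and Cdkn1b, encoding p27, with -1.54.

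Of 14 listed chromosomal neighbours that had rows, 13 have a human counterpart by symbol on chromosome 1, all within 1 Mb of the human p200 cluster. The 8 tested included 3 called higher and 1 lower, beside 10.2% and 9.98% of all genes tested, with a median log2 fold change of 0.43. Of the called genes, Slamf8 and Vsig8 passed the filter only through the KD libraries, and Fcer1a only through the control libraries. A difference was thus built into the selection of these genes, and no p-value is given for them. Slamf8, an immune receptor, had 5, 18 and 16 counts in control and 576, 507 and 429 in KD, a log2 fold change of 5.26 (standard error 0.23). Vsig8, with a log2 fold change of 4.60, and Cfap45, with 2.22, also rose. Fcer1a, a chain of the IgE receptor and outside the naming rule, had 65, 56 and 16 counts in control and 0 in every KD library. The abundant neighbour Tagln2, which encodes an actin-binding protein, had a log2 fold change of 0.41, Igsf8 0.40 and Pigm 0.44. These genes were chosen after their values were seen. At an adjusted p under 0.05 alone, 6 neighbours were higher and 1 lower, beside 36.7% of all genes tested in each direction. Whether position plays a part was not tested.

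Since p200 genes are strongly expressed in leukocytes, markers of other cell types were listed. In bulk RNA, fewer cells of a type and less RNA per cell cannot be told apart. Of 18 leukocyte markers 17 had rows and 7 were tested. Of these, 4 were called higher and 0 lower by edgeR, beside 10.2% and 9.98% of all genes tested. DESeq2 called 5 higher and 0 lower, and at an unadjusted p under 0.05 there were 4 and 0. The latter counts were the same at an adjusted p under 0.05, which 36.7% of all genes tested reached in each direction. The summed level of the leukocyte markers was 73.5 to 87.3 normalized CPM in control and 145 to 161 in KD. The higher ones were S100a8 (33.0 ± 1.25 to 95.2 ± 6.33 normalized CPM), Lyz2 (0.795 ± 0.626 to 6.58 ± 0.199), Cd74 and S100a9 (SD, n = 3). Among them, Lyz2 and S100a9 passed the filter only through the KD libraries, so a difference was built into their selection. The defining pan-leukocyte gene Ptprc had 12, 5 and 5 counts in control and 13, 8 and 8 in KD, the macrophage gene Csf1r had at most 3 in any library, and the T cell gene Cd3e had none. Cd68, a lysosomal protein gene on the leukocyte and macrophage lists, was well counted in every library, at 42.8 normalized CPM on average in control and 47.2 in KD, with overlapping groups.

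Macrophage and dendritic cell markers summed to 45.3 to 61.2 normalized CPM in control and 47.6 to 52.6 in KD, most of it from Cd68. Of 12 listed, 10 had rows and 3 were tested. Of these, 1 was called higher and 1 lower (Mrc1, a mannose receptor, log2 fold change -2.65), beside 10.2% and 9.98% of all genes tested. Of 8 endothelial markers, 4 were tested, and edgeR called 1 higher and DESeq2 2, where edgeR called 10.2% of all genes tested higher. The endothelial gene edgeR called was Cdh5 (VE-cadherin), with 14, 5 and 6 counts in control and 2175, 2136 and 2243 in KD. It passed the filter only through the KD libraries, so a difference was built into its selection. The sum of the endothelial markers was 9.05 to 10.9 normalized CPM in control and 65.3 to 66.6 in KD, mostly from Egfl7 in control and from Cdh5 in KD. Cldn5 had 0 counts in every control library and 9, 9 and 18 in KD, Kdr had 0, 0 and 1 in control and 2, 10 and 2 in KD, and Emcn and Tek were near 0 in both groups. Pecam1 had 11, 6 and 9 counts in control and 19, 7 and 11 in KD, with overlapping groups. Vwf also overlapped, with 20, 15 and 11 counts in control and 19, 16 and 10 in KD. Egfl7 was lower in KD, with a log2 fold change of -0.37 (edgeR adjusted p = 0.0144), under the fold threshold. Of 8 markers of the labelled cell type, 7 were tested, with 1 called higher and 0 lower by edgeR, beside 10.2% and 9.98% of all genes tested. At an adjusted p under 0.05 alone, 6 were higher and 0 lower, beside 36.7% of all genes tested in each direction. Vim, Cd44, Axl, Krt8 and Krt18 were abundant, while Egfr was at 5.75 normalized CPM on average in control and 9.31 in KD. The called gene was Cdh1, with 2, 1 and 3 counts in control and 22, 30 and 31 in KD, and it passed the filter only through the KD libraries. The epithelial gene Epcam was near 0 in both groups. The part of any of these markers in the p200 values was not tested.

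By a set rule, the genes with the closest profile were sought for the member with the highest mean CPM, Ifi203, by the Euclidean distance of centred log2 CPM over 6 libraries. They were Nlk (distance 0.0396), Stk3 (0.0453), Ppp2r3a (0.0525), Rbm25 (0.0571) and Ubp1 (0.0600), all with overlapping groups. The same search for Aim2, added after the values were seen, gave Oas2 (0.142), Irgm2 (0.170), Gbp7 (0.194), Clec4e (0.194) and Znfx1 (0.203). Oas2, an oligoadenylate synthetase, was at 57.0 ± 3.32 normalized CPM in control and 349 ± 16.4 in KD (SD, n = 3), a 6.13-fold fitted change beside 5.93-fold for Aim2. Since the search matched profiles over these same libraries, a similar fold was built into the choice. The order within each set of 5 genes rests on small differences in distance.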

How the data were processed

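RNA-seq counts of 3 KD and 3 control libraries were used. Per the paper's methods the authors trimmed adapters and mapped reads with HISAT2 to hg19, whereas the submitters' processing notes name hg38, HISAT2, featureCounts and DESeq2. Library kits also differ between paper and labels. The authors deposited raw counts per gene in 1 table without normalization, and the annotation and strand setting are not given in the sources used here. Columns were matched to samples by name, and 0 sample columns were left unused.

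The test was that of edgeR 4.0.16 (R 4.3.3), with filterByExpr (minimum count 10, minimum total 15), TMM normalization, a quasi-likelihood model of group only, and Benjamini-Hochberg adjustment over 13497 genes. Calls required an adjusted p under 0.05 and a fold change over 2. Standard errors were derived from the fitted change and its F statistic. Normalized CPM uses TMM-scaled totals, and distances used log2 CPM with a prior count of 2. Intervals cover counting error only. The pipeline was tested on simulated data.

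Members and lists were chosen with earlier results of these data known. Named were all family genes found, up to 4 called genes a list (largest change, 100 or more counts in each library where it was higher) and the 5 nearest profiles. Alternatives were other scalings, filters, DESeq2 1.42.0, single libraries left out, the replicate number as a block and no fold threshold. A gene counted in the lists is not reported here.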

Additional observations from a re-analysis of the deposited data

How the results depend on the processing

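The members called stayed at 3 higher and 0 lower with each library left out and with other scalings. They were 2 higher with at least 10 counts in every sample, a filter that removes Ifi206, and 1 member was lower without a fold threshold. That filter left 3 of the 5 other p200 genes called and 903 genes called higher. Without the fold threshold, 4952 genes were higher and 4960 lower, and the pathway list genes numbered 67 higher and 28 lower, against 41 and 8. With single libraries left out, the genes called ranged from 1405 to 1488 higher and 1257 to 1392 lower. The log2 fold change of Ifi203 lay between -0.0658 and 0.0078 with single libraries left out, positive only without KD replicate 1, and apart from dropping the fold threshold no other p200 gene changed sign or call under the alternatives that kept it. The replicate numbers do not pair the samples, since same-numbered libraries had correlations of deviations of 0.0421, -0.0147 and -0.0214. With the replicate block, 1360 genes were higher and 1316 lower, the members called were 3 and 0, and the call of no p200 gene changed. Not every library correlated best with its own number. Depth limits Ifi206, Ifi213 and Ifi214, with at most 5 counts in any control library.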
